A study of Mus musculus with 9 samples.

Results

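The genes described here are 10 integrin subunits of myeloid cells, chosen by name from a list of 50559 genes counted by RNA-Seq: Itgam, Itgb2, Itgax, Itgal, Itga4, Itga5, Itga6, Itgav, Itgb1, and Itgb5. All 10 passed the filter on low counts, as did 16618 genes in total. The libraries came from quadriceps of 4.5-week-old mdx mice, which lack dystrophin and serve as a model of Duchenne muscular dystrophy. Cells were sorted as CD45+CD11b+ after 7 days of vehicle, of the mineralocorticoid receptor antagonist spironolactone, or of the glucocorticoid prednisolone. Each group had 3 libraries, and each library pooled the quadriceps of 3 mice. The replicate is thus a pool, in which the spread between single mice is reduced but not removed, and cannot be measured. All groups were mdx, and no healthy muscle was sequenced, so each comparison is between dystrophic muscles. The groups held mice of both sexes, and the sexes within each pool are not given in the sources used here.

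Integrins are cell surface receptors made of an alpha and a beta chain, and they bind to extracellular matrix or to counter-receptors on other cells. The beta2 chain encoded by Itgb2 (CD18) pairs with the leukocyte alpha chains of Itgal (CD11a), Itgam (CD11b), Itgax (CD11c), and Itgad (CD11d), and these receptors hold leukocytes to endothelium and take up complement-coated particles. The beta1 chain of Itgb1 pairs with many alpha chains, among them alpha4, which binds VCAM-1 and fibronectin, alpha5, the classical fibronectin receptor, and alpha6, which binds laminin. The alphav chain of Itgav pairs with several beta chains, including beta5 of Itgb5, and binds ligands such as vitronectin and osteopontin. In injured muscle, monocytes and macrophages use these receptors to leave the blood and to hold on to matrix and dying fibers.

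Between 31469815 and 32943512 counts per library fell on genes, and the 10 subunits had 3650 to 50048 counts each. The spread between the 3 pools of a group was larger than the counting error in 28 of 30 combinations of subunit and group. The exceptions were Itga5 with vehicle (SD 0.861% of the mean, counting error 0.966%) and Itgb1 with spironolactone (0.51% and 0.879%). Levels are given as CPM (counts per 1000000, with TMM scaling), which compare 1 gene between libraries, or as TPM (transcripts per 1000000), which divide by transcript length and so compare genes. The labelled cell type was checked against marker lists. The 6 macrophage markers summed to 5799 to 7259 CPM in the 9 libraries, the 5 lymphocyte markers to 1.06 to 9.37 CPM, and Ptprc, which encodes CD45, was at 545 to 659.6 CPM. Neutrophil markers varied most within a group, with 590.3, 894, and 2657 CPM in vehicle libraries 1, 2, and 3. Skeletal muscle markers (167 to 518 CPM) and fibro-adipogenic markers (481 to 924 CPM) were present in every library, and every marker of these lists had counts in all libraries.

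Several of the subunits lie together in the genome. Coordinates are those of GENCODE on GRCm39. On chromosome 7, Itgam (127661808 to 127717753, plus strand) is followed after 10914 bases by Itgax (127728668 to 127749829, plus strand), and Itgad begins 3718 bases further on. Itgal lies on the same chromosome and strand at 126895432 to 126934320, and Itgb2, the shared partner, is on chromosome 10 (77366086 to 77401542, plus strand). Itga5 is on chromosome 15 (103252713 to 103275270, minus strand), Itgb1 on chromosome 8 (129411876 to 129460618, plus strand), and Itgb5 on chromosome 16 (33649988 to 33771137, plus strand). Itga4 (79085660 to 79163467), Itga6 (71575960 to 71689757), and Itgav (83554403 to 83637260) are all on the plus strand of chromosome 2. All 10 are protein coding, and every value is a count over the exons of the whole gene.

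The stretch before the start of 3 subunits is shown because the results turn on them: Itgax with prednisolone against vehicle, Itgam as its neighbor and the gene of the sorting marker, and Itga5 as the member with the smallest adjusted p. The sequences are RefSeq promoter windows, which end at the RefSeq start. They were placed on GRCm39 by exact match and end here before the first GENCODE exon, on the strand of the gene, at chr7:127661562-127661807 (plus strand), chr7:127728472-127728667 (plus strand), and chr15:103275271-103275468 (minus strand). Capitals mark GAGGAA, the core bound by the myeloid factor PU.1, and AGAACA, a half-site of the glucocorticoid receptor, each on either strand.
Itgam: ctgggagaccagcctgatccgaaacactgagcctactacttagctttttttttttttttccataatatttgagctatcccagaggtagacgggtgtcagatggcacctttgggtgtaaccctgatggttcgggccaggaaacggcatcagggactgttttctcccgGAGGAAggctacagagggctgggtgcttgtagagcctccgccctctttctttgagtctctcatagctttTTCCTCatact
Itgax: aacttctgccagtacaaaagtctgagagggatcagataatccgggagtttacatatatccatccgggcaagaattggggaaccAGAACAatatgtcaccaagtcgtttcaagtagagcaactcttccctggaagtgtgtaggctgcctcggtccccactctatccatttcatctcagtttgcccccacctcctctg
Itga5: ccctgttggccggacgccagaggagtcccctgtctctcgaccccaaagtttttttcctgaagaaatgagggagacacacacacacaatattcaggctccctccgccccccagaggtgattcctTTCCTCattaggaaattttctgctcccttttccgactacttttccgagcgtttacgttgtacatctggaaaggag

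Of the 10 subunits, 7 had a RefSeq promoter entry; Itgb2, Itgal, and Itga6 did not. In the full windows of 250 bases before the RefSeq start, GAGGAA was in 4 of these 7 (Itgam, Itga5, Itgav, and Itgb1), and 23.3% of all 32851 promoter windows of that length held it. AGAACA was in 2 of 7 (Itgax and Itgb1) and in 16.1% of all windows. TGANTCA, the AP-1 motif, was in 1 of 7 (Itgax) and in 6.75% of all windows. That match runs over the end of the stretch shown into the first exon, so it is not complete there. The 3 motifs do not overlap one another in these windows. A match is a run of letters and was not tested for binding here.

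Per transcript length, Itgb2 and Itgam led the list in the dystrophic quadriceps. In vehicle libraries, Itgb2 was at 1486 ± 139.7 TPM and Itgam at 1065 ± 36 TPM (SD, n = 3), and their ranges did not overlap. A middle group followed with Itgb1 at 319 ± 16 TPM, Itgax at 298 ± 20.9 TPM, Itga5 at 275 ± 15.8 TPM, and Itgb5 at 248 ± 51.3 TPM, and each of these overlapped with its neighbor in the order. Itgal was lower, at 144 ± 23.5 TPM, with a range apart from both neighbors. Itga6 (79.6 ± 22.5 TPM), Itga4 (72.6 ± 19.9 TPM), and Itgav (52.4 ± 4.05 TPM) came last and overlapped in order. With the longest transcript as length in place of all merged exons, Itgb5 moved from place 6 to place 3, and the other genes kept their relative order. The TPM values themselves moved by at least their SD in 21 combinations of subunit and group, and by less in 9. In vehicle libraries Itgb2 was then at 1128 ± 109 TPM and Itga4 at 89.2 ± 24.2 TPM. The SD given beside a TPM does not cover this choice of length.

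**Figure D1:**
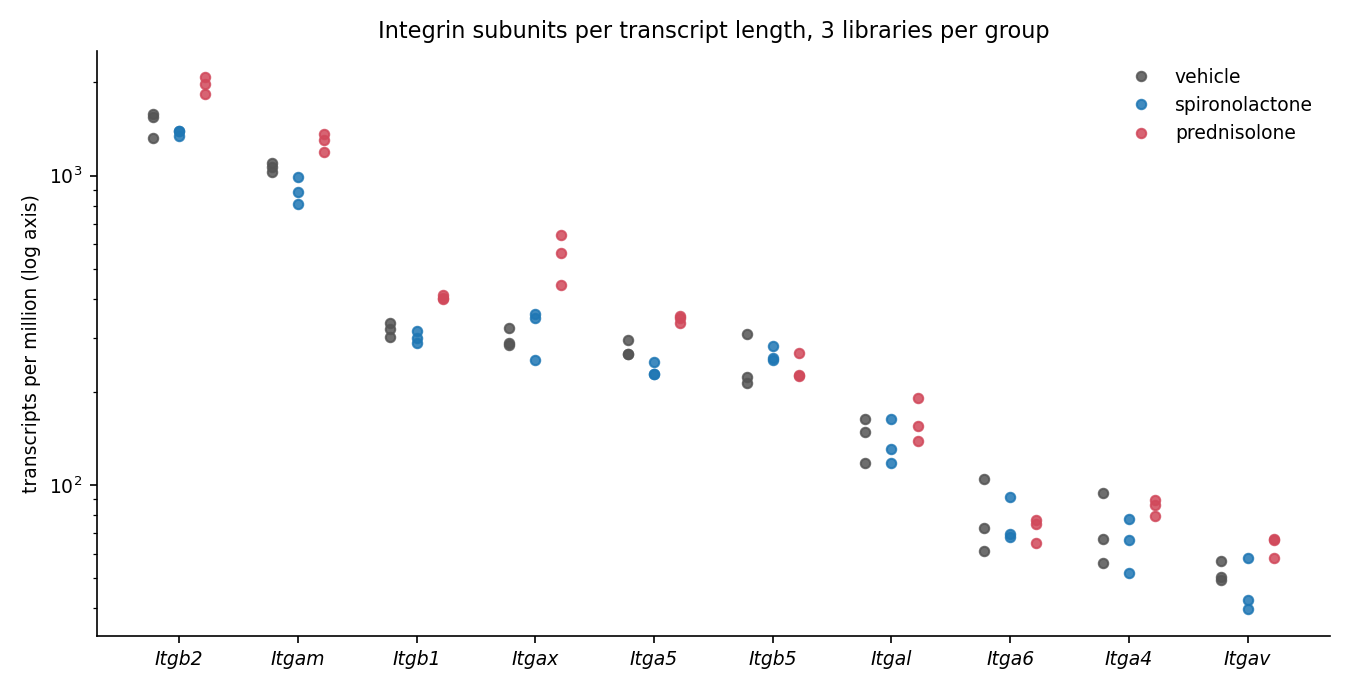
Level of each integrin subunit per transcript length (TPM, log axis), with 1 point per library and 3 libraries per group, genes ordered by their vehicle mean. Itgb2 and Itgam stand above the other subunits in all groups, from 812 to 2078 TPM, and Itgav is lowest, from 39.8 to 67.1 TPM.

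Itgb2 and its alpha chains were at nearly equal summed levels. The ratio of Itgb2 TPM to the summed TPM of Itgal, Itgam, Itgax, and Itgad was 0.985 ± 0.0721 with vehicle, 1.02 ± 0.0944 with spironolactone, and 0.979 ± 0.0174 with prednisolone (SD, n = 3), and the 3 groups overlapped. With the longest transcript as length the vehicle ratio was 0.92 ± 0.0671. Within the alpha sum, Itgam made up 70.7% ± 0.545 in vehicle libraries, Itgax 19.8% ± 1.88, and Itgal 9.51% ± 1.33 (SD, n = 3). Itgad, the neighbor of Itgax, had 8 to 31 counts per library and made up 0.036% ± 0.00525 of the sum in vehicle libraries.

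The question of the first comparison was what prednisolone did to the subunits in myeloid cells of dystrophic muscle. Of the 10 subunits, 1 passed the test, and 8 of 10 had higher fitted levels than with vehicle. Itgax rose by 73.8%, and Itgb2, Itgb1, and Itga5 had all 3 prednisolone libraries above the vehicle range without passing the test. The summed level of the 10 subunits was 4517 to 4793 CPM with vehicle and 5285 to 5757 CPM with prednisolone. In the quasi-likelihood F test of edgeR, two-sided, with Benjamini-Hochberg adjustment over 16618 genes, 1.76% of all genes passed an adjusted p of 0.05, against 1 of the 10 subunits. At an unadjusted p under 0.05 there were 4 of 10, against 14.2% of all genes. The groups did not overlap for 4 of 10 subunits, against 19.7% of all genes. The median log2 fold change was 0.19 over the subunits and -0.014 over all genes. In the same comparison, skeletal muscle markers summed to 270.5 to 403 CPM with prednisolone against 167 to 257 CPM with vehicle. Lymphocyte markers summed to 1.06 to 2.29 against 2.46 to 4.46 CPM. Neutrophil markers, of cells that carry CD11b/CD18, summed to 674 to 852 against 590.3 to 2657 CPM. Of these, 5 of 6 were lower in fitted level, with a median log2 fold change of -1.48. Monocyte markers summed to 1598 to 2048 against 919 to 1959.7 CPM, with 3 of 4 lower and a median of -0.50. The neutrophil and monocyte sums overlapped between the groups. No marker of these lists passed the threshold, and their part in the levels was not tested. These are bulk libraries, in which fewer cells of a type and less RNA per cell cannot be told apart.

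Itgax encodes CD11c, a receptor chain of dendritic cells and of many tissue macrophages. It was at 334, 325, and 323 CPM in vehicle libraries 1, 2, and 3, at 269, 401, and 398 CPM with spironolactone, and at 471, 654, and 581 CPM with prednisolone. All prednisolone libraries were above every other library, while the spironolactone libraries lay on either side of the narrow vehicle range. Against vehicle, the log2 fold change with prednisolone was 0.80 ± 0.15 (SE), with an adjusted p of 0.0197 in edgeR. The call held in all 7 alternative settings other than leaving out a library. It was lost without prednisolone library 2 (adjusted p = 0.117), prednisolone library 3 (0.0692), vehicle library 2 (0.079), or vehicle library 3 (0.0648), with log2 fold changes from 0.69 to 0.92 over all 9 such fits. The summed level of dendritic cell markers was also higher. The 5 markers (Flt3, Zbtb46, Cd209a, Xcr1, and Ccr7) summed to 58.2 to 71.6 CPM with vehicle and 80.6 to 104 CPM with prednisolone. Of these, 3 of 5 (Flt3, Zbtb46, and Cd209a) had prednisolone above the vehicle range, against 19.7% of all genes that did not overlap, and none passed the test (smallest adjusted p 0.0536, Flt3, edgeR). Xcr1 and Ccr7 overlapped, with log2 fold changes of 0.04 and -0.04. With spironolactone the same markers summed to 68.3 to 122 CPM. There too, 3 of 5 (Flt3, Cd209a, and Xcr1) were above the vehicle range, against 13.5% of all genes that did not overlap. None passed the test (smallest adjusted p 0.129, Flt3, edgeR). The log2 fold change of Itgax with spironolactone was 0.12 ± 0.15 (SE, adjusted p = 0.876 in edgeR). None of the 5 was at 0 in any library, and their part in the level of Itgax was not tested.

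**Figure D2:**
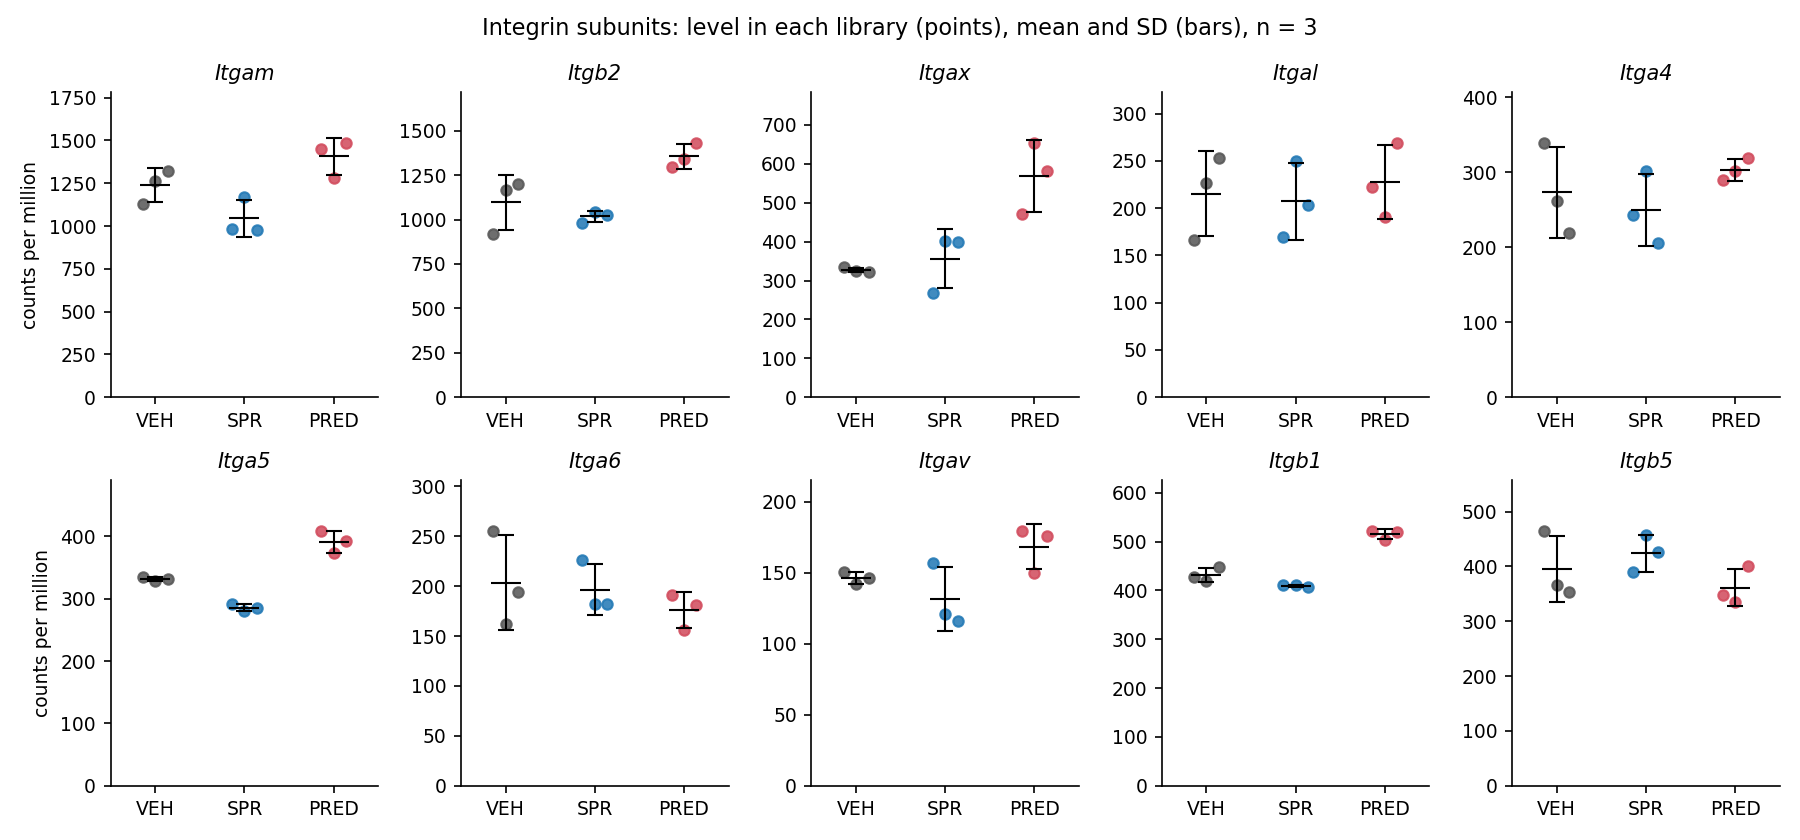
Level of each integrin subunit in CPM in the vehicle (VEH), spironolactone (SPR), and prednisolone (PRED) libraries, with 1 point per library and black bars for the mean and SD of 3 libraries. Itgax, Itgb2, Itga5, and Itgb1 have all prednisolone points above all others, and Itga5 has all spironolactone points (281 to 291 CPM) below all vehicle points (329 to 334 CPM).

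The levels of the neighbors Itgam and Itgax were also set against each other. Within each library, Itgax had 29.7, 25.7, and 24.4 counts per 100 Itgam counts with vehicle, 27.3, 34.2, and 40.7 with spironolactone, and 32.4, 51, and 39.1 with prednisolone. Each prednisolone library was above all vehicle libraries, and spironolactone overlapped with both groups. The log2 ratio was 0.60 higher with prednisolone than with vehicle (-1.32 against -1.92; exact permutation test, two-sided, p = 0.1, the smallest that 3 libraries against 3 can give) and 0.34 higher with spironolactone than with vehicle (exact permutation test, p = 0.2). This ratio does not depend on library scaling, and its log2 difference between groups does not depend on gene length. It was chosen after its values were seen, and without each library in turn the difference stayed from 0.43 to 0.75 for prednisolone and from 0.21 to 0.49 for spironolactone.

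**Figure D3:**
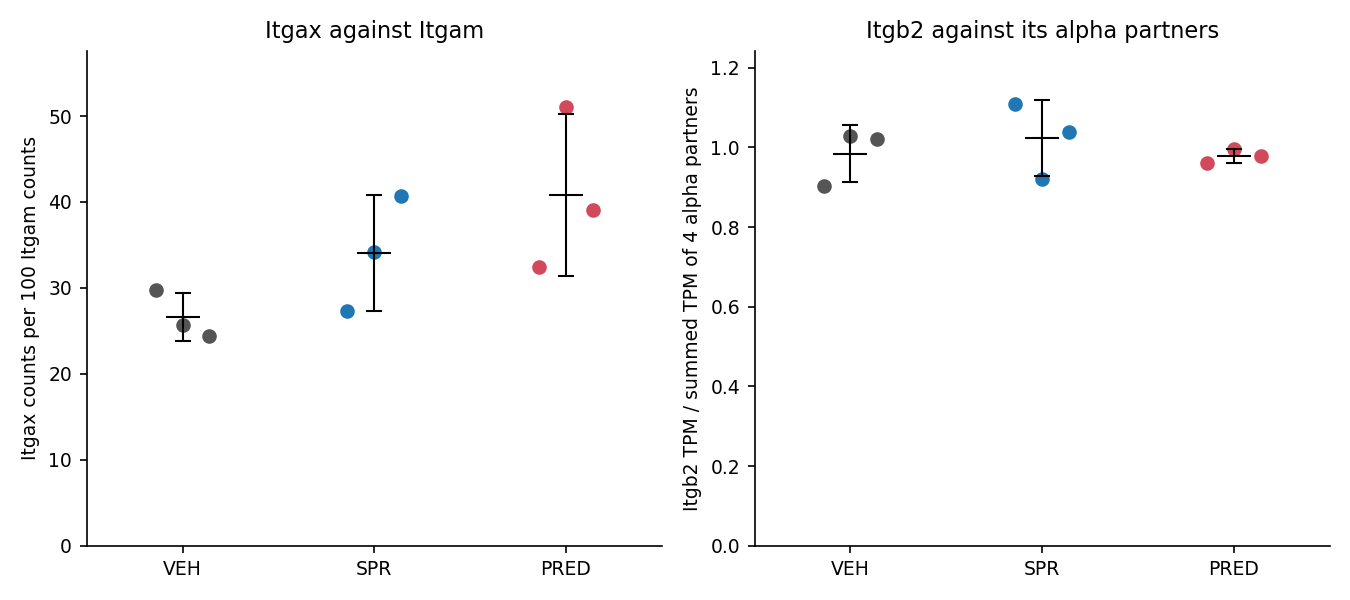
Left, Itgax counts per 100 Itgam counts in each library; right, Itgb2 TPM divided by the summed TPM of Itgal, Itgam, Itgax, and Itgad; points are libraries and black bars the mean and SD of 3. On the left the prednisolone points (32.4 to 51) lie above the vehicle points (24.4 to 29.7), and on the right the groups overlap between 0.902 and 1.11.

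Itgam, the gene of the CD11b protein used for the sort, was at 1127, 1264, and 1322 CPM with vehicle, 984, 1170.3, and 978 CPM with spironolactone, and 1453, 1281, and 1486 CPM with prednisolone. Both drug groups overlapped with vehicle, and the drug groups did not overlap with each other. Neither difference from vehicle passed the test: prednisolone gave a log2 fold change of 0.19 ± 0.11 (adjusted p = 0.479), and spironolactone gave -0.25 ± 0.11 (SE; adjusted p = 0.508, both edgeR). All cells had passed a gate on the CD11b protein, and the part of that gate in the level of Itgam was not tested. Itgam shares 67.4% of its exon bases with the predicted gene Gm49368 on the same strand, which the count tables do not list as a separate gene.

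Itgb2, the common beta chain, was at 919.8, 1166, and 1203 CPM with vehicle, 982, 1044, and 1028 CPM with spironolactone, and 1295, 1339.7, and 1432 CPM with prednisolone. The prednisolone libraries were all above the vehicle range, and spironolactone lay within it. The log2 fold changes against vehicle were 0.31 ± 0.11 (adjusted p = 0.196) with prednisolone and -0.11 ± 0.11 (SE; adjusted p = 0.838, edgeR) with spironolactone.

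Itgal, the CD11a chain that binds ICAM-1, was at 166, 227, and 253 CPM with vehicle, 169, 249.6, and 203 CPM with spironolactone, and 222, 191, and 269 CPM with prednisolone. The 3 groups overlapped throughout. Its 95% intervals of the log2 fold change ran from -0.32 to 0.48 for prednisolone and from -0.46 to 0.34 for spironolactone against vehicle, so that shifts of that size in either direction are not excluded.

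Itga5, which pairs with the beta1 chain to bind fibronectin, was at 334, 329, and 332 CPM with vehicle, 291, 281, and 285 CPM with spironolactone, and 408, 373, and 393 CPM with prednisolone. The 3 groups were fully apart, spironolactone lowest and prednisolone highest. The fit gives each gene a variance that borrows from other genes, and against vehicle the log2 fold changes of 0.24 ± 0.08 with prednisolone (adjusted p = 0.177) and -0.21 ± 0.08 with spironolactone (SE; adjusted p = 0.424, edgeR) did not pass the test.

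Itgb1 was at 427, 419, and 447 CPM with vehicle, 410.1, 410.4, and 407 CPM with spironolactone, and 521, 504, and 520.5 CPM with prednisolone. Its 3 groups were also apart in the same order. Prednisolone against vehicle gave a log2 fold change of 0.26 ± 0.08 (SE; adjusted p = 0.14 in edgeR), and DESeq2 gave an adjusted p of 0.0207. Spironolactone against vehicle gave -0.08 ± 0.08 (adjusted p = 0.846, edgeR). The ratio of Itgb1 TPM to the summed TPM of the alpha chains that can pair with beta1 was 0.566 to 0.673 with vehicle, 0.614 to 0.68 with spironolactone, and 0.65 to 0.687 with prednisolone, and the groups overlapped.

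The other alpha chains showed wider spread. Itga4 was at 339, 261, and 219 CPM with vehicle, 243, 301, and 206 CPM with spironolactone, and 289.6, 301, and 319 CPM with prednisolone, with overlap between all groups. On the opposite strand its exons overlap with those of Cerkl by 20.8% of their bases. Itga6, the laminin receptor chain, was at 255, 162, and 194 CPM with vehicle, 226, 182, and 182 CPM with spironolactone, and 191, 156, and 181 CPM with prednisolone, again with overlap. In Itga4, Itga6, and Itgb5, vehicle library 1 was the highest of the vehicle libraries, and it was the lowest in Itgam, Itgb2, and Itgal. Without that library the log2 fold change of Itgb5 with prednisolone was 0.00, and that of Itgal was -0.08.

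The alphav and beta5 chains can pair with each other. Itgav was at 150.4, 142, and 146 CPM with vehicle, 157, 121, and 116 CPM with spironolactone, and 179, 149.9, and 176 CPM with prednisolone. Itgb5 was at 464, 367, and 354 CPM with vehicle, 389, 457, and 426 CPM with spironolactone, and 348, 336, and 399.9 CPM with prednisolone. Both overlapped between each drug and vehicle. For Itgb5, the 95% interval of the log2 fold change against vehicle was -0.38 to 0.12 with prednisolone and -0.15 to 0.35 with spironolactone.

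The next comparison asked the same of spironolactone. None of the 10 subunits passed the test against vehicle in edgeR, and none did in DESeq2. Fitted levels were lower for 8 of 10, and at an unadjusted p under 0.05 there were 2 of 10 (Itgam and Itga5), against 9.29% of all genes. Itga5 and Itgb1 were the subunits whose spironolactone libraries were all below the vehicle range, 2 of 10, against 13.5% of all genes whose groups did not overlap. The summed level was 4121 to 4617 CPM with spironolactone against 4517 to 4793 CPM with vehicle. Endothelial (123 to 193 against 54.5 to 94.7 CPM), skeletal muscle (312 to 518 against 167 to 257 CPM), and lymphocyte markers (5.13 to 9.37 against 2.46 to 4.46 CPM) were apart in the same comparison with none past the threshold, and their part in the levels was not tested. The median log2 fold change was -0.09 over the subunits and 0.000 over all genes. Across all genes 0.0181% passed, 3 genes, so that a count of 0 among 10 is near the background.

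The last comparison set the drugs against each other. With spironolactone, 5 of 10 subunits were lower than with prednisolone: Itgam, Itgb2, Itgax, Itga5, and Itgb1. Itgam and Itgax are alpha partners of Itgb2, and the alpha5 and beta1 chains pair to bind fibronectin. Itgal, another partner of Itgb2, and Itga4, whose chain also binds fibronectin, did not pass (adjusted p = 0.726 and 0.329, edgeR). None of the 10 subunits passed as higher, against 5.17% of all genes that passed in either direction. The groups did not overlap for the same 5 genes, while 30.3% of all genes did not overlap. Fitted levels were lower for 8 of 10, with a median log2 fold change of -0.35 over the subunits and 0.026 over all genes. Without 1 library the count was 1 (prednisolone library 2 or 3), 2 (prednisolone library 1 or spironolactone library 3), or 3 (spironolactone library 1 or 2), and 4 to 6 without a vehicle library. The number called over all genes moved in the same fits, from 859 to 232 without prednisolone library 2, 380 without prednisolone library 3, 304 without prednisolone library 1, 270 without spironolactone library 3, and 1898 without vehicle library 1. This comparison uses the same drug libraries as the comparisons with vehicle and is not independent of them.

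Itga5 had the smallest adjusted p, with a log2 fold change of -0.45 ± 0.08 (SE; adjusted p = 0.00782 in edgeR), or 26.9% lower. It stayed past the threshold in all 7 alternative settings and without each of the 9 libraries, with adjusted p from 0.00226 to 0.0407 in the latter. Itgax was 37.4% lower, at -0.68 ± 0.15 (SE; adjusted p = 0.0238), and lost the call without prednisolone library 2 or 3. Itgb1 was 20.6% lower, at -0.33 ± 0.08 (adjusted p = 0.0316), and stayed past the threshold in 3 of the 9 fits without a library, those without a vehicle library.

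The chains of CD11b/CD18 were lower by a like amount. Itgam was 25.8% lower, at -0.43 ± 0.11 (SE; adjusted p = 0.0353), and Itgb2 was 24.9% lower, at -0.41 ± 0.11 (SE; adjusted p = 0.043, both edgeR). Both passed in all 7 alternative settings. Itgam passed in 4 of the 9 fits without a library, and lost the call without any 1 of the prednisolone libraries or without spironolactone library 1 or 3. Itgb2 passed in 2 of 9, those without vehicle library 1 or 3. The log2 fold changes themselves stayed from -0.52 to -0.39 for Itgam and from -0.45 to -0.37 for Itgb2.

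Of the 5 subunits that did not pass, Itgav had the smallest adjusted p, with a log2 fold change of -0.36 ± 0.12 (SE; adjusted p = 0.0845 in edgeR). It passed in 3 of 7 alternative settings. The 95% intervals of the log2 fold change were -0.62 to 0.07 for Itga4, -0.53 to 0.27 for Itgal, -0.17 to 0.49 for Itga6, and -0.02 to 0.48 for Itgb5. Ptprc, a leukocyte gene that is not a subunit, had -0.10 ± 0.09 (SE; adjusted p = 0.582 in edgeR). Some marker lists also differed between the drug groups. The dendritic cell markers set beside Itgax above overlapped, at 68.3 to 122 CPM with spironolactone and 80.6 to 104 CPM with prednisolone. None of these 5 was apart or past the threshold, and their median log2 fold change was 0.03. Endothelial markers summed to 123 to 193 CPM with spironolactone and 71.6 to 97.8 CPM with prednisolone, with 4 of 7 higher past the threshold. Lymphocyte markers summed to 5.13 to 9.37 against 1.06 to 2.29 CPM, with 2 of 5 higher, and macrophage markers to 6777 to 7259 against 5799 to 6353 CPM, with none of 6 past the threshold. Neutrophil markers, of cells that carry CD11b/CD18, summed to 918 to 1946 CPM with spironolactone and 674 to 852 CPM with prednisolone, with 4 of 6 not overlapping, a median log2 fold change of 1.48, and none past the threshold. Monocyte markers summed to 1233 to 1471 against 1598 to 2048 CPM, with 3 of 4 not overlapping and none past the threshold; Ly6c2 and Plac8 were above the prednisolone range and Chil3 below it. No endothelial, macrophage, neutrophil, or monocyte marker was at 0 in any library. Beside these counts, 5.17% of all genes passed and 30.3% did not overlap. The part of these markers in the levels of the subunits was not tested.

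**Figure D4:**
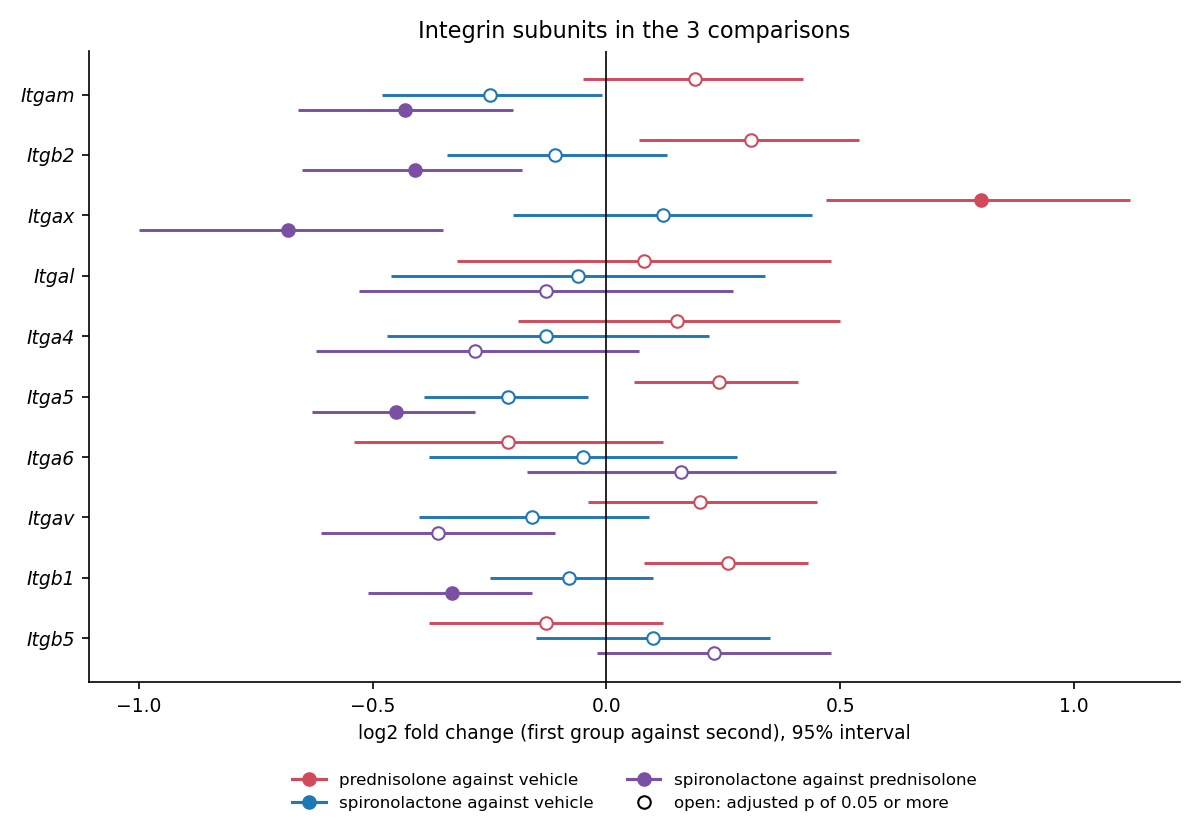
Log2 fold change of each integrin subunit in the 3 comparisons, with lines for the 95% interval from the edgeR fit; filled points have an adjusted p under 0.05. The filled points are Itgax with prednisolone against vehicle (0.80), and Itgam, Itgb2, Itgax, Itga5, and Itgb1 with spironolactone against prednisolone (-0.68 to -0.33).

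Genes whose pattern over the 9 libraries was most like that of a subunit were listed for Itgam, Itgb2, and Itga5, by Pearson correlation of log2 CPM among 8659 genes with a mean of at least 10 CPM. These libraries share groups and sources, and no p is given. For Itgam they were Ptpn12 (r = 0.99), a tyrosine phosphatase, Msn (0.983), which encodes moesin, a link between membrane and actin, and Cass4 (0.974), an adhesion scaffold. For Itgb2 they were Mtfr1 (0.988), a mitochondrial gene, Tle1 (0.966), a corepressor, and Tlr4 (0.965), the receptor for lipopolysaccharide. For Itga5 they were Lrrc8b (0.983), a subunit of volume-regulated anion channels, Add3 (0.977), an adducin of the membrane skeleton, and Prkd3 (0.975), a protein kinase.

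The other integrin subunits in the genome were mostly low in these cells. Of 16 such genes, 15 passed the filter on low counts, and together they had 219.8 to 280.3 CPM per library against 4121 to 5757 CPM for the 10 described above. Itgb7, which pairs with alpha4, was the most abundant, at 158 ± 20.3 CPM with vehicle, 154 ± 10.9 CPM with spironolactone, and 170.4 ± 24 CPM with prednisolone (SD, n = 3), and passed in no comparison. Itgb3, the beta chain of the platelet fibrinogen receptor and of a vitronectin receptor, was at 5.02 to 8.9 CPM. Against vehicle, 0 of the 15 passed in edgeR with either drug, with 1 and 4 at an unadjusted p under 0.05 for prednisolone and spironolactone, where all genes gave 14.2% and 9.29%. Between the drugs 1 of 15 passed, near the 5.17% of all genes. Itgb4, a laminin receptor chain of epithelium and endothelium, was at 1.98, 2.65, and 2.34 CPM with vehicle, 5.22, 4.27, and 4.34 CPM with spironolactone, and 2.85, 1.93, and 1.46 CPM with prednisolone, apart from both. Its log2 fold change between the drugs was 1.15 ± 0.27 (SE; adjusted p = 0.0272 in edgeR), and the call was lost without any 1 of the spironolactone libraries or without prednisolone library 2 or 3. Endothelial markers, of cells that lack CD45 and should not pass the sort, were higher in the same libraries, as given above, and their part in this value was not tested.

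Inside the cell, talin and kindlin bind the beta tail and switch integrins on, and alpha-actinin, vinculin, and filamin tie them to actin. Of 34 genes of this machinery, all tested, 1 passed against vehicle with prednisolone, 0 with spironolactone (3 at an unadjusted p under 0.05, edgeR), and 4 between the drugs. Of all genes 1.76%, 0.0181%, and 5.17% passed, and 9.29% had an unadjusted p under 0.05 with spironolactone against vehicle. With prednisolone against vehicle, 8 of 34 had an unadjusted p under 0.05, against 14.2% of all genes, and 9 of 34 did not overlap, against 19.7%. Actn1, alpha-actinin, was at 131, 113, and 148 CPM with vehicle, 129, 122, and 127 CPM with spironolactone, and 193, 195, and 176 CPM with prednisolone. The prednisolone libraries were above all others. Actn1 rose by 43.8% with prednisolone (log2 fold change 0.52 ± 0.10, adjusted p = 0.0192) and was 33% lower with spironolactone than with prednisolone (-0.58 ± 0.10, SE; adjusted p = 0.00712, edgeR). The call against vehicle was lost without prednisolone library 1 or 2 or without vehicle library 2.

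Vcl, vinculin, was also lower with spironolactone than with prednisolone (-0.51 ± 0.10, adjusted p = 0.0135), as was Flna, filamin A (-0.40 ± 0.10, SE; adjusted p = 0.039, edgeR). In both, every spironolactone library was below every prednisolone library. The call of Vcl was lost without prednisolone library 1 or 2 or spironolactone library 2 or 3, and that of Flna without any 1 of the prednisolone libraries, spironolactone library 2 or 3, or vehicle library 2. Rasgrp2, an activator of Rap1 upstream of integrins, was higher by 0.55 ± 0.12 (SE; adjusted p = 0.0179). It was at 29.7, 28.8, and 30.3 CPM with spironolactone and at 20.8, 18.5, and 21.3 CPM with prednisolone, and lost the call without prednisolone library 1 or 2 or spironolactone library 3. Talin itself, Tln1, was at 1156 to 1290.0 CPM with spironolactone and 1299 to 1668 CPM with prednisolone, and did not pass (-0.29 ± 0.11, adjusted p = 0.129). Fermt3, the kindlin of blood cells, had 0.08 ± 0.09 (SE; adjusted p = 0.675). The median log2 fold change over the 34 genes was 0.03 for prednisolone against vehicle, -0.05 for spironolactone against vehicle, and -0.02 between the drugs. Without a library these counts were 0 to 5 against vehicle with prednisolone and 1 to 8 between the drugs, while all genes gave 69 to 826 and 232 to 1898 calls.

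Ligands were read in the same cells, which can make matrix and counter-receptors themselves. Of 28 ligand genes, 24 passed the filter; the fibrinogen genes and Madcam1 had at most 1 count per library. Fn1, fibronectin, the ligand of alpha5beta1, was at 3889.7, 3904, and 3167 CPM with vehicle, 2080.3, 3203, and 2191 CPM with spironolactone, and 6068, 5005, and 5189 CPM with prednisolone. The prednisolone libraries were above all others, and spironolactone library 2 reached into the vehicle range. Between the drugs Fn1 was 54% lower with spironolactone (log2 fold change -1.12 ± 0.16, SE; adjusted p = 0.00254 in edgeR), and this held without each of the 9 libraries. Against vehicle, neither drug passed (0.57 ± 0.16, adjusted p = 0.0922, with prednisolone, and -0.55 ± 0.16, SE; adjusted p = 0.217, with spironolactone, edgeR). That call turns on the method, since DESeq2 and the edgeR fit without a low-count filter called Fn1 against vehicle with either drug, as did the fit without spironolactone library 2. Fibro-adipogenic markers, which mark a cell type that also makes fibronectin and lacks CD45, summed to 628 to 924 CPM with spironolactone and 604 to 656 CPM with prednisolone, and their part in the level of Fn1 was not tested.

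Spp1, osteopontin, a ligand of alphav, alpha4, and alpha5 integrins, was at 7169, 7836, and 10647 CPM with vehicle, 8329, 6473, and 5584 CPM with spironolactone, and 10948, 10888, and 11085 CPM with prednisolone. Prednisolone was again above every other library. The log2 fold change between the drugs was -0.69 ± 0.16 (SE; adjusted p = 0.0274 in edgeR). Lamc1, a laminin chain, was at 77.1, 78.2, and 78 CPM with vehicle and 111, 106, and 105 CPM with prednisolone, and it rose by 37.7% (0.46 ± 0.10, adjusted p = 0.0325). It was 27.5% lower with spironolactone than with prednisolone (-0.46 ± 0.10, SE; adjusted p = 0.0195, edgeR). Icam2, a counter-receptor of CD11a/CD18 on endothelium and leukocytes, went the other way, at 13.4, 10.6, and 10.1 CPM with spironolactone and 7.29, 5.17, and 6.74 CPM with prednisolone (0.83 ± 0.20, SE; adjusted p = 0.0307, edgeR). The endothelial markers given above, of cells the sort should remove, also were higher with spironolactone, and their part in the level of Icam2 was not tested. The calls of Spp1 and Lamc1 between the drugs were each lost without any 1 of the prednisolone libraries or without spironolactone library 2 or 3, and that of Icam2 also without spironolactone library 1. The call of Lamc1 against vehicle was lost without any 1 of the prednisolone libraries or without vehicle library 2 or 3.

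Thbs1, a thrombospondin, had the smallest p of the ligands with spironolactone against vehicle. It was at 1997 to 2272 CPM with vehicle and 1118 to 1269 CPM with spironolactone, and did not pass the test (log2 fold change -0.83 ± 0.13, SE; adjusted p = 0.0542, edgeR). It passed in 5 of the 7 alternative settings and in 4 of the 9 fits without a library. With prednisolone it was at 1422 to 1994 CPM, also below every vehicle library, and did not pass in edgeR (-0.40 ± 0.13, SE; adjusted p = 0.141), while DESeq2 and the fits without a low-count filter or without prednisolone library 1 called it. Between the drugs it did not pass either (-0.43 ± 0.13, SE; adjusted p = 0.0677, edgeR). Icam1 and Vcam1, the counter-receptors of CD11a/CD18 and of alpha4beta1, passed in no comparison, with levels of 109.8 to 175 CPM and 6.47 to 10.8 CPM. Over the 24 ligands, 1 passed with prednisolone against vehicle (10 at an unadjusted p under 0.05, edgeR; DESeq2 called 6), 0 with spironolactone against vehicle (8 at an unadjusted p under 0.05, edgeR; DESeq2 called 7), and 4 between the drugs. Beside these stand 1.76% (14.2% unadjusted), 0.0181% (9.29% unadjusted), and 5.17% of all genes in edgeR, and DESeq2 called 5.03% with prednisolone and 1.6% with spironolactone against vehicle. Of the 7 that DESeq2 called with spironolactone against vehicle, Jam2, Lama4, Lama5, Lamb1, and Nid1 were higher, and Fn1 and Thbs1 were lower. The endothelial and skeletal muscle markers that were higher in that comparison are given above (7 of 7 and 5 of 5 higher in fitted level). Fibro-adipogenic markers summed to 628 to 924 CPM with spironolactone and 481 to 664 CPM with vehicle. All 5 of 5 were higher in fitted level, 4 at an unadjusted p under 0.05 in edgeR, and none passed the test. The part of these lists in the ligand levels was not tested. Over the 24 ligands, the median log2 fold change was 0.32 with prednisolone and 0.10 with spironolactone against vehicle, and 0.00 between the drugs.

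**Figure D5:**
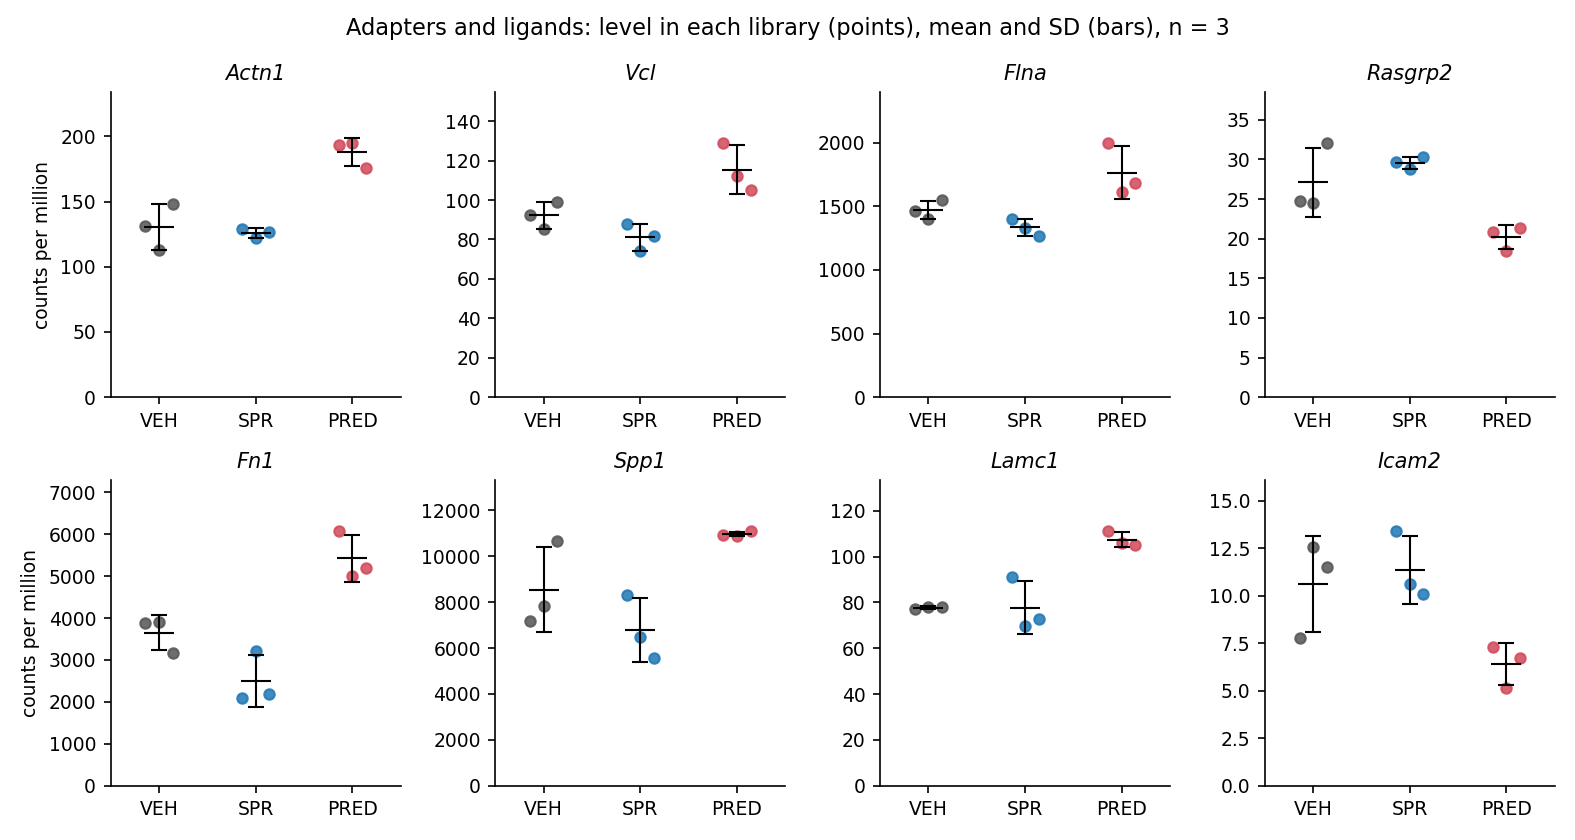
Level in CPM of 4 genes of the integrin machinery (Actn1, Vcl, Flna, Rasgrp2) and 4 ligand genes (Fn1, Spp1, Lamc1, Icam2) in the vehicle (VEH), spironolactone (SPR), and prednisolone (PRED) libraries; points are libraries and black bars the mean and SD of 3. In Rasgrp2 and Icam2 the prednisolone points are lowest, and in the other 6 genes they are highest.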

How the data were processed

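RNA was sequenced from sorted CD45+CD11b+ cells of 9 pools of mdx quadriceps, 3 per treatment. The deposited values are whole-number counts per gene, which the authors made per the labels with HISAT2 2.2.1 on mm39 and HTSeq 0.11.3; DESeq2 1.32.0 is named in the same notes. The annotation release and the strand setting of the counting are not given in the sources used here. The 3 deposited tables of the authors' own comparisons hold fold changes and p-values and were not used. Lines that name no gene (17.2% to 21.8% of a library) were left out. No libraries were duplicates (chi-square per degree of freedom 18 to 57.8 within groups).

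The quasi-likelihood F test was run on the counts with edgeR 4.0.16 in R 4.3.3 (TMM, robust fit, all 9 libraries in 1 fit, filterByExpr with a minimum count of 10, and Benjamini-Hochberg adjustment over 16618 genes, threshold 0.05). Groups came from the labels. The steps were tested on simulated data. TPM used the merged exon lengths of GENCODE M39 on GRCm39, with a length for 40303 of 50559 symbols and at least 91% of the counts. The members and gene lists were chosen with earlier results of these data known. Named were all 10 subunits, list genes past the threshold and a few fixed genes (Tln1, Fermt3, Itgad, Itgb3, Itgb7, Icam1, Vcam1, Fn1, Spp1, Thbs1, Ptprc), and the 3 genes most like Itgam, Itgb2, and the subunit with the smallest adjusted p. Alternatives were DESeq2 1.42.0, limma-voom (limma 3.58.1), edgeR on 2 groups, RLE or library totals as scaling, no low-count filter, a replicate block, and each library left out. Because libraries are pools, p-values measure the spread between pools.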

Additional observations from a re-analysis of the deposited data

How the results depend on the processing

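For the 10 subunits in 3 comparisons, 206 of 210 log2 fold changes under the settings other than leaving out a library kept their direction and their side of the threshold, and 4 newly passed it (Itgb1 with prednisolone against vehicle in DESeq2, and Itgav between the drugs in DESeq2, without a low-count filter, and with a replicate block). Without each library in turn, 234 of 270 kept both, 24 lost a call, 2 gained one, and 10 changed sign, all of them in results that had not passed.

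The number of subunits called with prednisolone against vehicle was 2 with DESeq2 and 0 to 1 without each library, with spironolactone against vehicle it was 0 throughout, and between the drugs it was 1 to 6 without each library. For the other integrin subunits, the fit without a low-count filter called 1 with prednisolone and 2 with spironolactone against vehicle, and DESeq2 called 1 with spironolactone; without each library the counts were 0 to 1 with prednisolone and 0 to 1 between the drugs. For the integrin machinery, DESeq2 called 3 and the fit without a low-count filter 4 with prednisolone against vehicle, and edgeR on 2 groups called 7 between the drugs; without each library the counts were 0 to 5 and 1 to 8. For the ligands, DESeq2 called 6 with prednisolone against vehicle, 7 with spironolactone against vehicle, and 7 between the drugs, and the fit without a low-count filter called 10, 9, and 10. With spironolactone against vehicle, edgeR on 2 groups, library totals, and the replicate block each called 1 ligand, Thbs1, which also passed under DESeq2 and without the filter; without each library the ligand counts were 0 to 3, 0 to 4, and 1 to 6 in that order. The cause of these shifts was not tested.

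Leaving out a library gave log2 fold changes from -0.08 to 0.21 for Itgal and from -0.21 to 0.00 for Itgb5 with prednisolone against vehicle. With spironolactone against vehicle it gave -0.21 to 0.07 for Itgal, -0.28 to 0.06 for Itga4, and -0.19 to 0.15 for Itga6, and between the drugs -0.29 to 0.00 for Itgal. These signs are not settled by the data. Over all genes, DESeq2 called 686 with prednisolone and 263 with spironolactone against vehicle and 1594 between the drugs, and the fit without a low-count filter called 1019, 528, and 1940, against 293, 3, and 859 in the edgeR fit described above. Leaving out a library gave 69 to 826, 0 to 34, and 232 to 1898.

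Whether the replicate numbers pair the libraries is not settled. Deviations of libraries with the same number correlated from -0.05 to 0.17 over the 2000 most variable genes, with 2 of 9 pairs over 0.1. Those of libraries with other numbers correlated from -0.15 to 0.05. Of the 9 libraries, 6 correlated best with a library of their own number. A replicate block moved the calls over all genes to 336, 8, and 1082. Of genes named, Itgad, with 8 to 31 counts per library, is near the low-count filter.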
